A study of Mus musculus with 13 samples.

Results

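Neutrophils are short-lived granulocytes that enter inflamed and tumor-bearing colon in large numbers. The cells described here are neutrophils of mouse colon tumors that carried RNA of interferon-induced genes. They were chosen barcode by barcode in 10 single-cell RNA sequencing (scRNA-seq) libraries of colon tumors, from unique molecular identifiers (UMIs), which count captured RNA molecules. Barcodes of 500 UMIs and 200 genes or more entered when mitochondrial transcripts made up less than 25% of their UMIs. Such a barcode was gated as a neutrophil with at least 20 UMIs of S100a8 and S100a9, at least 1 UMI of Csf3r and Cxcr2, no UMI of Cd3e or Cd79a and at most 2 UMIs of the C1q genes. It was called interferon-responding when Rsad2, Ifit1, Ifit3 and Cxcl10 together had at least 5 UMIs. By this rule 3370 of 28738 gated tumor neutrophils were interferon-responding (11.7%), of 93871 kept tumor barcodes and 118892 in all 13 libraries. The other 25368 gated neutrophils, with 0 to 4 such UMIs, served as the comparison.

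All mice carried the ApcMin allele, an Apc mutation that causes intestinal adenomas, and the p16cis/cis epimutation, an engineered gain of DNA methylation at the p16 promoter, on C57BL/6J. All received an NIH-31 diet supplemented with choline, betaine, folic acid and vitamin B12, so no group without these alleles or this diet enters. Both alleles were in the germ line, not confined to neutrophils or to tumor cells. Mouse A gave tumors 5 to 8 at 24 weeks of age, mouse B tumors 9 and 10 at 23 weeks and mouse C tumors 1 to 4 at 20 weeks, and each mouse gave 1 sample of adjacent mucosa. With 1 age per mouse, mouse and age cannot be told apart. The labels give 2 sexes under a single animal code for mice A and C, so sex was not used. The labels alone do not settle whether tumors under one code came from one animal. The paper states that its 10 tumors came from 3 mice, which is the number of codes, so tumors under one code are taken to share an animal. Mouse here means animal code. Tumors were dissociated with a tumor dissociation kit and mucosa with EDTA and TrypLE.

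Type I interferons and interferon gamma bind surface receptors, activate the JAK kinases and factors of the STAT family, and switch on a large set of antiviral and immune genes. A complex of STAT factors with IRF9 binds the interferon-stimulated response element (ISRE). Some targets, Cxcl10 among them, also answer to NF-kB, the factor activated by tumor necrosis factor and by microbial products. Rsad2 encodes viperin, an antiviral enzyme, Ifit1 and Ifit3 encode antiviral proteins with tetratricopeptide repeats, and Cxcl10 encodes a chemokine for CXCR3-bearing T cells.

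The promoters of the 4 interferon genes of the rule are shown because the cells divided by which of these genes they carried. Gbp5 and Slfn4 are added as genes outside the rule, a guanylate-binding protein and a label gene that the rule did not use. The windows hold the 220 bases before the RefSeq transcription start (mouse build GRCm38.p6), read along the strand of the gene. Capitals mark matches to the ISRE core GAAANNGAAA on either strand or to the NF-kB consensus.
Cxcl10, chr5:92348890-92349109, minus strand: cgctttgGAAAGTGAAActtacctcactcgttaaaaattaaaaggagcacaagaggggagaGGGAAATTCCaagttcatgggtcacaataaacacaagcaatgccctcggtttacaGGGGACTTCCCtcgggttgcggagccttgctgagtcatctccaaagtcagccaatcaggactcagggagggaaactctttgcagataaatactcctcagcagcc
Rsad2, chr12:26456453-26456672, minus strand: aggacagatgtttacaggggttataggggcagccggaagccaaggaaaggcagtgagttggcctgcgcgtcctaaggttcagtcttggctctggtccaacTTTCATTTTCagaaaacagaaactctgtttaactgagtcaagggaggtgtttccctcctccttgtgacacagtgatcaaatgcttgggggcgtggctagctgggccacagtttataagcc
Ifit1, chr19:34640669-34640888, plus strand: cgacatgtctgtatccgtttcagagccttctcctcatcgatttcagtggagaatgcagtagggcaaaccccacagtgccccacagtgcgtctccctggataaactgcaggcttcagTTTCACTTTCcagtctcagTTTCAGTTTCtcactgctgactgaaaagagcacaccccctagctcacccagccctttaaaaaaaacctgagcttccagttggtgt
Ifit3, chr19:34583309-34583528, plus strand: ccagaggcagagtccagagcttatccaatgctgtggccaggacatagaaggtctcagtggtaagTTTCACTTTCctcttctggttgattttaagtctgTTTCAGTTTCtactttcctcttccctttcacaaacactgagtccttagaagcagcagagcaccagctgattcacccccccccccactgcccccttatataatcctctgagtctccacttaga
Gbp5, chr3:142496714-142496933, plus strand: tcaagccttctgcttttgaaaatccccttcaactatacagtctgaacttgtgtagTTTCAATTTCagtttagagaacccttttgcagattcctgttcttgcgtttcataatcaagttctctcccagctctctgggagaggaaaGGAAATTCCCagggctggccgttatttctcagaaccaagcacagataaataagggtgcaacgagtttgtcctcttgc
Slfn4, chr11:83174966-83175185, plus strand: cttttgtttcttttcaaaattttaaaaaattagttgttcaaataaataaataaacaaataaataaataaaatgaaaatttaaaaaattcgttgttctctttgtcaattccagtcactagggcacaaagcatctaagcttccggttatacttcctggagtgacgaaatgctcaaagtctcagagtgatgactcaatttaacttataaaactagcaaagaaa
The Cxcl10 window held 1 ISRE match and 3 NF-kB matches, of which 2 start 1 base apart and overlap. Rsad2 had 1 ISRE match, Ifit1 2 and Ifit3 2, with no NF-kB match in these windows. Gbp5 had 1 of each, and neither run of letters was found in the Slfn4 window. Among 27025 genes with a RefSeq window of 250 bases before the start, 3.46% held the ISRE core and 10.8% the NF-kB consensus. Of 43 such genes on the list of interferon-stimulated genes outside the rule, 39.5% held the ISRE core and 30.2% the NF-kB consensus. A match is a run of letters and not a measured binding site.

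The barcodes carried the neutrophil genes that the rule asked for, at levels given in CPM (UMIs of a gene scaled to a fixed total) of the summed cells of each tumor. S100a8, a subunit of calprotectin, ranged from 27438 to 78056 CPM (median 54372) over the 10 tumors. Csf3r, the receptor for granulocyte colony-stimulating factor, ranged from 426 to 760.1 CPM (median 538). It had a UMI in 89.9% of the barcodes, and Cxcr2, a neutrophil chemokine receptor, in 91.7%. Among the interferon genes, Cxcl10 stood far above the rest. It ranged from 2081 to 4072 CPM (median 2505) in interferon-responding cells and from 12.5 to 39.7 CPM in the other neutrophils. Rsad2 ranged from 172 to 750.3 CPM (median 372), Ifit1 from 98.9 to 336 CPM and Ifit3 from 25.2 to 225 CPM. These 4 genes chose the cells, so their levels are a description with no test.

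Cxcl10 supplied most of the signal by which cells were chosen. It held 81.8% of the UMIs of the 4 genes in interferon-responding cells, against 10.2% for Rsad2, 6.07% for Ifit1 and 1.95% for Ifit3. Of the 3370 barcodes, 1506 (44.7%) had Cxcl10 UMIs only, and 831 (24.7%) had 1 to 4 UMIs of the other three genes. The remaining 1033 (30.7%) had at least 5 UMIs of the other three, and 492 of them had no Cxcl10 UMI. The Cxcl10-only share ran from 36.7% in tumor 5 to 59.1% in tumor 10 (median 43.1%). The label thus covers cells that differ in which interferon gene they carry. Among 16858 gated neutrophils with 2000 to 4000 UMIs, Cxcl10 was detected in 25.9% of those with an Rsad2 UMI and in 9.90% of those without. Ifit1 was detected in 27.4% and 2.71%.

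**Figure D1:**
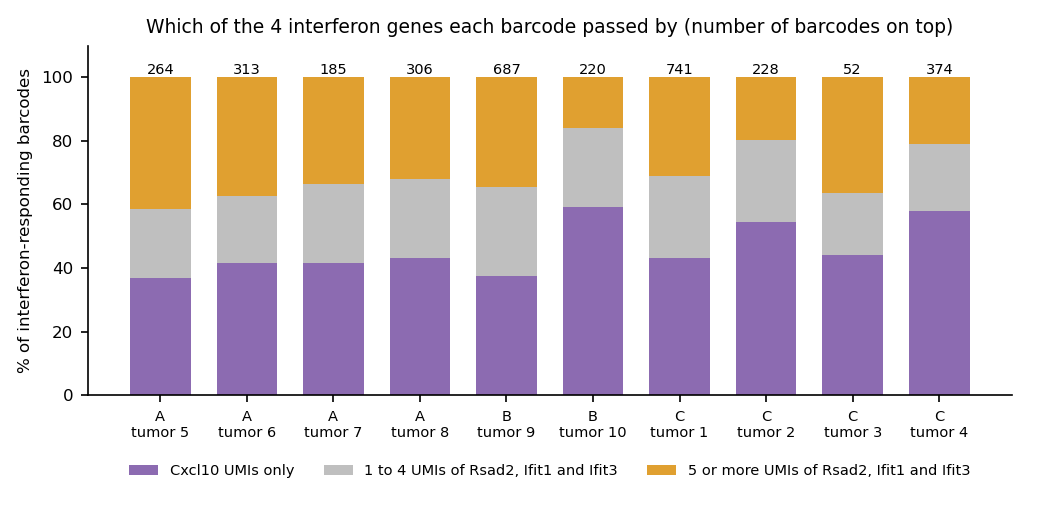
Stacked bars give, for each tumor (x axis), the percent of interferon-responding barcodes (y axis) with Cxcl10 UMIs only, with 1 to 4 UMIs of Rsad2, Ifit1 and Ifit3 together, or with 5 or more. Cxcl10-only barcodes make up 36.7% to 59.1% of each tumor's cells.

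The median barcode had 15 UMIs of the 4 genes (quartiles 8 and 30, highest 231), while 83.1% of the other neutrophils had none. Just inside the threshold, 303 barcodes had exactly 5 UMIs, and just outside it, 388 had exactly 4. Pooled over tumors, Isg15 stood at 767 CPM just inside and 629 CPM just outside, Gbp2 at 399 and 351 CPM, and Slfn4 at 762 and 660.3 CPM.

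Depth and RNA of other cells moved with the rule. Interferon-responding barcodes had a median of 3853 UMIs and 935 genes, against 2782 UMIs and 777 genes in the other neutrophils. Scrublet, which scores barcodes against simulated pairs of cells, marked 14.5% against 6.22% as doublets. The 6 epithelial markers together ranged from 1618 to 4726 CPM (median 3029) against a median of 1629 CPM, higher in 10 of 10 tumors. Barcodes with over 0.1% epithelial-marker UMIs made up 10.8% (363 barcodes) against 5.57%, and those interferon-responding ones had a median of 18866 UMIs. The 5 monocyte markers had a median of 216 against 181 CPM, higher in 10 of 10 tumors. The 8 further neutrophil markers were higher in 0 of 10 tumors (21679 against 28715 CPM).

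Other lineages moved less evenly. The macrophage list had a median of 266 against 269 CPM, the T cell list 14.2 against 18.2 CPM with Cd8a at 0, and the B and plasma cell list 68.3 against 104 CPM with Ms4a1 at 0. The dendritic cell list stood at 8.43 against 7.58 CPM with Xcr1 and Siglech at 0, the mast cell list at 16.1 against 16.9 CPM with Cpa3 and Ms4a2 at 0, and the fibroblast list at 0.690 against 2.25 CPM with Dcn at 0. Erythrocyte markers reached 19295 CPM in tumor 3, against 185 CPM in its other neutrophils. Tumor 3 also had the fewest interferon-responding barcodes (52).

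Gene results are therefore also given in a lineage-restricted set, with S100a8 and S100a9 at 5% of UMIs or more and every other-lineage list at 0.1% or less. It kept 2577 interferon-responding and 20577 other barcodes, and its epithelial level was 94.8 against 96.0 CPM. Another set paired each interferon-responding barcode with another neutrophil of like UMI total, and a further set left out Scrublet doublets. Among the 93871 kept tumor barcodes, 1012 barcode sequences occurred in more than 1 tumor library, and 75 of the 3370 interferon-responding barcodes had such a sequence.

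Interferon-responding cells were found in every tumor, at very unequal shares. In tumors 1 to 4 of mouse C the share of gated neutrophils was 23.4% (741 barcodes), 7.33% (228), 2.76% (52) and 12.1% (374). In tumors 5 to 8 of mouse A it was 8.21% (264), 7.65% (313), 6.96% (185) and 10.1% (306). In tumors 9 and 10 of mouse B it was 23.7% (687) and 13.8% (220). The 4 tumors of mouse A lay close together, while mouse C held both the second highest and the lowest tumor. The mean was 11.6% ± 6.96 (SD, n = 10 tumors), and tumors 1 and 9 held 1428 of the 3370 barcodes (42.4%). Mouse means were 8.23% in A, 18.7% in B and 11.4% in C, a difference not beyond the spread between tumors (p = 0.211, two-sided exact permutation test of F over 3150 arrangements). Without tumor 1 the same exact permutation test gave p = 0.0246. Thinned to 1500 UMIs per barcode, the share was 1.40% to 15.9% (median 5.16%), with tumors 1 and 9 again highest.

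**Figure D2:**
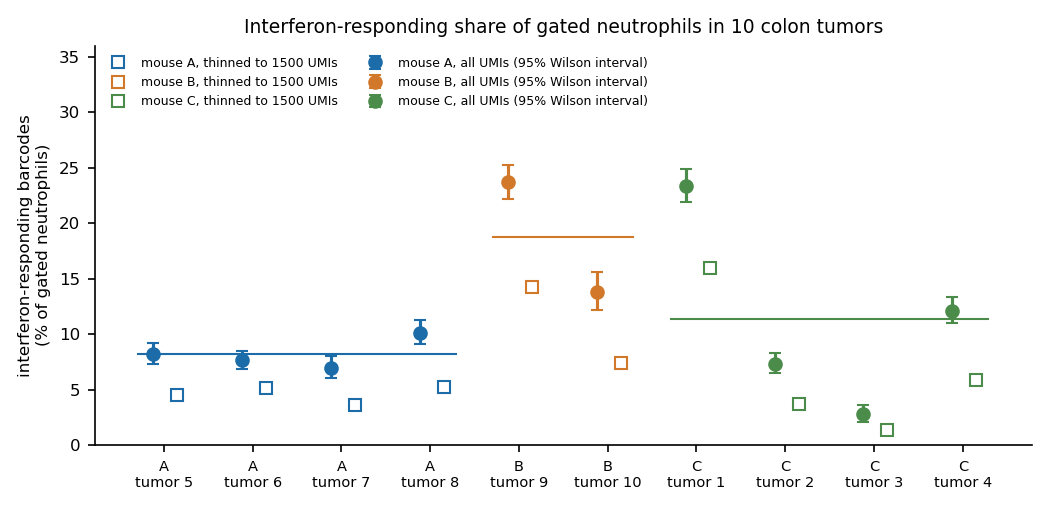
Filled circles give the percent of gated neutrophils that were interferon-responding in each tumor (x axis) with the 95% Wilson interval, which covers counting error only; open squares give the share after thinning to 1500 UMIs, and lines the mouse means. Tumors 1 and 9 stand at 23.4% and 23.7%, and tumor 3 at 2.76%.

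Adjacent mucosa held too few neutrophils for a comparison. In the 3 mucosa libraries 85 barcodes passed the neutrophil gate, and 3 of them had at least 5 UMIs of the 4 genes (3.53%, 95% Wilson interval 1.21% to 9.87%).

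To describe what else marked these cells, UMIs were summed per tumor over interferon-responding and over other gated neutrophils, and the 2 sums of each tumor were compared with the tumor as a block (edgeR quasi-likelihood test, Benjamini-Hochberg adjustment). The 13 genes of the rule were not tested. The other genes were read from the barcodes that the rule picked, so their differences describe what travels with the choice. Of 10467 genes, 1781 were higher (17.0%) and 2016 lower (19.3%) in interferon-responding cells. The restricted set gave 800 of 6395 higher (12.5%) and 540 lower (8.44%), the UMI-matched set 601 of 8221 (7.31%) and 122 (1.48%), and the doublet-free set 510 of 8655 (5.89%) and 396 (4.58%). Genes called in the same direction in all 4 comparisons numbered 201 higher (1.92%) and 16 lower (0.153%). Folds below are log2 fold changes ± SE over 10 tumors from the comparison of all cells after TMM scaling, whose median over all genes was 0.06. The ranges in CPM are scaled to the total of each sum instead, and folds on library totals had a median of 0.28, a median shift of 0.22 per gene. On library totals 3823 genes were higher (36.5%) and 956 lower (9.13%), so 80.0% of the calls were higher, against 46.9% with TMM. Every higher call with TMM stayed higher, while 1060 of the 2016 lower calls were lost and 0 turned higher. Library totals in the restricted set gave 683 higher (10.7%) and 939 lower (14.7%), in the UMI-matched set 469 (5.7%) and 537 (6.53%), and without doublets 628 (7.26%) and 500 (5.78%). Of the genes called in all 4 comparisons, 183 higher (1.75%) and 15 lower (0.143%) were called so on both scales. Values whose call differs between the scales are given on both below. Ranges are over the 10 tumors, with interferon-responding cells first and the other neutrophils after "against".

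The 12 genes with the highest folds under the naming rule, which took only genes higher in 10 of 10 tumors (7.88% of all genes tested), were higher in all 4 comparisons. Most are interferon-stimulated genes. Ifit2, a relative of Ifit1, ranged from 20.1 to 286 CPM (median 55.1) against 1.53 to 14.02 CPM (median 3.85), a fold of 3.24 ± 0.39 (adjusted p = 2.2e-05). Cxcl9, the sister chemokine of Cxcl10, ranged from 95.5 to 736 CPM (median 199) against 0 to 36.5 CPM (median 19.9), a fold of 3.19 ± 0.45 (adjusted p = 7.95e-05). Gbp5, a guanylate-binding protein that promotes inflammasome assembly, ranged from 93.5 to 248 CPM (median 128) against 4.13 to 46.1 CPM (median 18.0), a fold of 2.79 ± 0.19 (adjusted p = 1.69e-07). With all cells, every interferon-responding value of these 3 genes lay above every value of the other neutrophils. This held for 0.726% of all genes tested. In the restricted set Cxcl9 was as low as 6.36 CPM in a tumor of mouse C. Restricted other neutrophils had a mean of 12.7 CPM in mouse B, so the groups overlapped there. Tumor 3, with the fewest cells, gave the highest Ifit2 and Cxcl9 values.

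Cmpk2, a mitochondrial nucleotide kinase, ranged from 23.9 to 116 CPM against 4.44 to 12.2 CPM (2.17 ± 0.19). Usp18, the protease that removes ISG15 and dampens interferon receptor signaling, ranged from 25.2 to 65.7 CPM against 2.86 to 16.6 CPM (1.90 ± 0.18). Herc6, the mouse ligase that attaches ISG15, ranged from 26.6 to 97.9 CPM against 5.24 to 24.6 CPM (1.79 ± 0.19). These ranges did not overlap between the groups either. Slfn5, a Schlafen gene, ranged from 92.1 to 272 CPM against 15.6 to 60.2 CPM (1.94 ± 0.16), and Gbp3, a guanylate-binding protein, from 30.7 to 82.3 CPM against 4.13 to 20.3 CPM (2.01 ± 0.14). Ifi203 and Ifi211, of the Ifi200 family, ranged from 22.3 to 129 CPM against 3.81 to 16.9 CPM (2.37 ± 0.17) and from 19.8 to 65.2 CPM against 2.75 to 10.1 CPM (2.28 ± 0.18). Iigp1, an immunity-related GTPase, was the gene of the 12 whose groups overlapped with all cells, at 24.6 to 199.9 CPM against 4.60 to 31.8 CPM (2.06 ± 0.25). With the restriction Iigp1 ranged from 1.43 to 13.2, 4.24 to 25.9 and 0 to 20.4 CPM in mice A, B and C. The restricted other neutrophils had Iigp1 means of 3.56, 4.88 and 1.63 CPM. Tagap, a GTPase-activating protein of activated lymphocytes, ranged from 60.3 to 174 CPM against 6.82 to 32.3 CPM (2.17 ± 0.17).

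**Figure D3:**
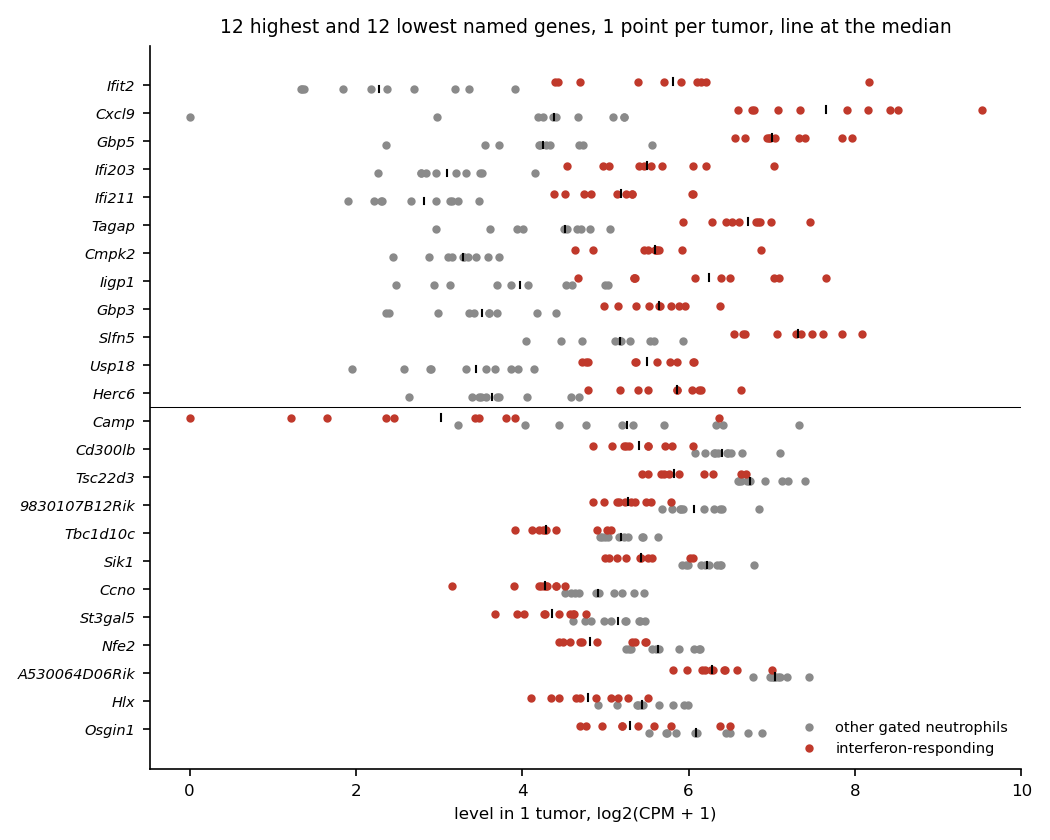
Each row is a gene, with 1 point per tumor for interferon-responding and other gated neutrophils, for the 12 genes with the highest and the 12 with the lowest folds under the naming rule. The x axis is log2(CPM + 1) and lines mark medians. Of the 24 genes, Iigp1 and the lowest genes other than Cd300lb overlap between the groups.

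RNA of interferons other than Ifng was scarce. In the 93871 kept tumor barcodes no UMI of the 5 listed Ifna genes was seen. A count of 0 has a 95% upper limit of about 3 on the expected number of UMIs. Ifnb1 had 66 UMIs, 28 of them in gated C1q macrophages and 0 in gated neutrophils. Ifng, the interferon of T and NK cells, had 11144 UMIs, 8169 in gated T cells and 5 in interferon-responding neutrophils. Ifne, an epithelial interferon, had 41 UMIs, 34 of them in gated epithelial cells. None of the 11 ligand genes had enough UMIs in neutrophils to be tested.

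The calls for receptors and kinases depended on the set and on the scale. Of 12 genes of interferon reception and JAK-STAT signaling, 2 were higher and 4 lower, with a median fold of -0.14 (0.07 on library totals). With the restriction 5 of 11 were higher and 1 lower, and in the UMI-matched set 6 of 11 were higher and 0 lower. All cells scaled by library totals gave 2 higher and 2 lower, and UMI-matched cells 4 and 0. Stat2 ranged from 33.4 to 68.9 CPM (median 58.1) against 13.2 to 45.4 CPM (median 25.9), a fold of 0.67 ± 0.14 (adjusted p = 0.00202). It was higher in 10 of 10 tumors and in all 4 comparisons, with overlapping ranges. Ifngr1, a chain of the interferon gamma receptor (-0.39, and -0.19 on library totals), and Il10rb, a chain shared with the type III interferon receptor (-0.45 and -0.24), were lower on both scales. Ifngr2, the other chain of that receptor, was called lower with TMM (-0.19, adjusted p = 0.0401) and stood at 0.03 on library totals (adjusted p = 0.773). Its median was 69.0 against 65.2 CPM, with interferon-responding cells higher in 7 of 10 tumors, so all cells gave it no direction that both scales share. Jak1 was likewise called lower with TMM only (-0.28, adjusted p = 0.0177, against -0.07, adjusted p = 0.297), with 5 of 10 tumors higher in CPM. In the restricted set Ifngr1 stood at -0.10 (adjusted p = 0.262) and Ifngr2 at -0.36 (adjusted p = 0.00645). In the UMI-matched set Jak1 was higher with TMM (0.28, adjusted p = 0.0189) and not called on library totals (0.18, adjusted p = 0.0531). The type I receptor genes Ifnar1 and Ifnar2 were not called on either scale. Ifnar1 stood at -0.19 with TMM (adjusted p = 0.0688) and 0.03 on library totals (adjusted p = 0.865), and Ifnar2 at -0.09 (adjusted p = 0.471) and 0.12 (adjusted p = 0.143). In CPM Ifnar1 was higher in 6 and Ifnar2 in 7 of 10 tumors. Ifnar2 was higher in the restricted set (0.34, adjusted p = 3.14e-05) and in the UMI-matched set (0.36, adjusted p = 0.00208), on both scales. When cells were chosen without Cxcl10 it was lower with TMM (-0.34, adjusted p = 0.0455) and not called on library totals (-0.10, adjusted p = 0.472). In that last comparison the other neutrophils are still those with 0 to 4 UMIs of all 4 genes. Cxcl10-only cells, and the cells with 1 to 4 UMIs of the other three, enter neither group.

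Among 12 interferon regulatory factors and inhibitors, 6 were higher and 1 lower, and 5 were higher in all 4 comparisons. The restricted set gave 10 of 11 higher and 0 lower, and the UMI-matched set 7 of 12 higher and 0 lower. With library totals all cells had 8 higher and 0 lower, and UMI-matched cells 6 and 0. Socs1, the feedback inhibitor of JAK kinases, ranged from 199 to 414 CPM (median 311) against 40.0 to 244 CPM (median 106), a fold of 1.35 ± 0.17 (adjusted p = 3.85e-05). Socs3, the feedback inhibitor of G-CSF and interleukin 6 signaling, ranged from 398 to 745 CPM against 232 to 608 CPM (0.39 ± 0.11). When cells were chosen without Cxcl10, Socs1 stood at 0.89 and Socs3 at -0.15 (adjusted p = 0.38). Irf7, the amplifier of type I interferon production, named after its values were seen, ranged from 99.6 to 217 CPM against 41.4 to 99.9 CPM (0.87 ± 0.14). Irf1, an early interferon target, had a median of 879 against 725 CPM and was not called with TMM (0.25, adjusted p = 0.155), but was higher on library totals (0.45, adjusted p = 0.00393) and in the restricted set (0.68, adjusted p = 1.06e-07). Ptpn1, a phosphatase of JAK kinases, was the lower gene with TMM (-0.27), was not called on library totals (-0.07, adjusted p = 0.451) and was higher in the restricted set (0.17, adjusted p = 0.0157).

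Most interferon-stimulated genes outside the rule were higher. Of 50 tested, 40 were higher, 1 lower and 9 not called, with a median fold of 0.95, and 30 were higher in all 4 comparisons. Restricted cells had 40 of 42 higher and 0 lower, and UMI-matched cells 44 of 48 higher and 0 lower. On library totals the list had 47 higher and 1 lower, and UMI-matched cells 42 and 0. Isg15, the ubiquitin-like modifier, ranged from 443 to 1809 CPM (median 869.6) against 145 to 649 CPM (median 257), a fold of 1.47 ± 0.17 (adjusted p = 1.61e-05). Slfn4, a myeloid Schlafen gene, ranged from 552 to 1082 CPM (median 770.1) against 338 to 680.4 CPM (median 470.2), a fold of 0.49 ± 0.13 (adjusted p = 0.00628) and 0.98 in the restricted set. Both were higher in 10 of 10 tumors, with overlapping ranges. Ifitm3, which blocks virus entry, was higher (0.26 ± 0.07, adjusted p = 0.00894). Ifitm1, its relative and the most abundant gene of the list, was the lower one (-0.44 ± 0.09, adjusted p = 0.00109), stood at 0.03 in the restricted set (adjusted p = 0.568) and was higher in the UMI-matched set (0.24, adjusted p = 0.0245), but not on library totals there (0.13, adjusted p = 0.0569).

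Another group of interferon-induced genes was higher as well, and which interferon induced it was not tested. All 15 tested guanylate-binding proteins and immunity-related GTPases, which attack the vacuoles of intracellular microbes, were higher (median fold 1.53), and 10 were so in all 4 comparisons. The restricted set could test 10 of them and the UMI-matched set 14, and all of those were higher. Gbp2 ranged from 330.2 to 720.2 CPM (median 522) against 76.0 to 344 CPM (median 161), a fold of 1.46 ± 0.16 (adjusted p = 1.02e-05). Irgm1, a regulator of these GTPases, ranged from 183 to 338 CPM against 30.3 to 227 CPM (0.93 ± 0.17), and Igtp from 106 to 198 CPM against 27.0 to 134 CPM (0.90 ± 0.16). Gbp7 ranged from 93.3 to 198 CPM against 27.6 to 109.7 CPM (1.06 ± 0.13). The groups overlapped for these 4 genes, but each was higher in 10 of 10 tumors.

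The machinery of MHC class I presentation was higher by smaller steps. Of 14 genes, 13 were higher (median fold 0.49) and 10 were so in all 4 comparisons, 9 of them on both scales. H2-K1, a class I heavy chain, ranged from 507 to 1239 CPM against 301 to 782 CPM (0.52 ± 0.06, adjusted p = 2.54e-05). It was the gene not called on both, at 0.24 in the UMI-matched set on library totals (adjusted p = 0.0556). B2m, the class I light chain, ranged from 877 to 1679 CPM against 589.9 to 1136 CPM (0.36 ± 0.07), and the immunoproteasome subunit Psmb8 from 279 to 461 CPM against 119 to 310.3 CPM (0.62 ± 0.09). H2-D1, another heavy chain, was not called with TMM (adjusted p = 0.992) and was higher on library totals (0.20, adjusted p = 0.00217) and in the restricted set (0.32, adjusted p = 7.33e-07). Of 6 MHC class II genes, which mark dendritic cells, macrophages and B cells, 3 were higher and 0 lower. With the restriction 5 of 6 were higher and 0 lower, and in the UMI-matched set 0 of 6 were higher and 0 lower. All cells scaled by library totals gave 6 higher and 0 lower, and UMI-matched cells 0 and 0. Cd74, the class II invariant chain, stood at 0.57 ± 0.18 (adjusted p = 0.0194) and at -0.10 in the UMI-matched set (adjusted p = 0.802).

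Of 17 tested sensors of nucleic acids and microbes, 7 were higher and 2 lower. The restricted set gave 9 of 11 higher and 0 lower, and the UMI-matched set 7 of 12 higher and 0 lower. With library totals all cells had 11 higher and 2 lower, and UMI-matched cells 7 and 0. Ddx58, Ifih1 and Dhx58, the cytoplasmic RNA helicases, and Nod1, a peptidoglycan sensor, were higher in all 4 comparisons, and are named after their values were seen. Ifih1 ranged from 25.9 to 76.1 CPM (median 47.6) against 9.05 to 23.7 CPM (median 14.98) without overlap, a fold of 1.34 ± 0.14 (adjusted p = 6.14e-06). Tlr4, the lipopolysaccharide receptor, was lower (-0.59 ± 0.13, adjusted p = 0.00214), and stood at 0.08 in the UMI-matched set (adjusted p = 0.714). The adaptor Myd88, the receptor Tlr2 and the inflammasome sensor Nlrp3 were not called with TMM (0.18, -0.22 and -0.09). On library totals Myd88 was higher (0.38, adjusted p = 0.000103), and Tlr2 (-0.02, adjusted p = 0.837) and Nlrp3 (0.11, adjusted p = 0.18) were not called. Nlrp3 had a median of 746 against 705 CPM and was higher in 7 of 10 tumors. Each of these genes was higher in the restricted set (0.69, 0.26 and 0.43) and in the UMI-matched set (0.77, 0.37 and 0.59). With cells chosen without Cxcl10, Tlr2 (-0.43, adjusted p = 0.0115) and Nlrp3 (-0.37, adjusted p = 0.0165) were lower with TMM and not called on library totals (-0.18 and -0.13, adjusted p = 0.118 and 0.208).

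Of 15 tested chemokines and receptors, 4 were higher and 3 lower, and Cxcl9 and Ccrl2 were higher in all 4 comparisons. Restricted cells had 9 of 15 higher and 1 lower, and UMI-matched cells 7 of 15 higher and 0 lower. On library totals the list had 9 higher and 2 lower, and UMI-matched cells 6 and 0. Ccrl2, a chemerin-binding receptor, named after its values were seen, ranged from 342 to 952 CPM against 143 to 512 CPM (0.78 ± 0.10, adjusted p = 3.85e-05). Cxcl2, the neutrophil attractant, ranged from 7018 to 20589 CPM against 7427 to 23942 CPM and was not called on either scale (-0.06, adjusted p = 0.705, and 0.14, adjusted p = 0.0976). Cxcl3 was not called either (-0.09 and 0.11), and Ccl4 (0.10) was called higher on library totals only (0.30, adjusted p = 0.0133). Cxcl2 and Cxcl3 were higher in the restricted set (0.45 and 0.47) and in the UMI-matched set (0.59 and 0.58). Ccl6 was lower (-0.68 ± 0.09), and stood at 0.02 in the UMI-matched set.

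Of 20 genes of activated tumor neutrophils, 7 were higher and 2 lower, and 6 were higher in all 4 comparisons. With the restriction 14 of 20 were higher and 1 lower, and in the UMI-matched set 14 of 19 were higher and 0 lower. All cells scaled by library totals gave 11 higher and 1 lower, and UMI-matched cells 14 and 0. Acod1, which makes itaconate, ranged from 1431 to 2403 CPM against 899 to 1541 CPM (0.40 ± 0.10, adjusted p = 0.00486). The next 4 genes are named after their values were seen. Cd274, encoding the checkpoint ligand PD-L1, ranged from 181 to 410.03 CPM (median 289) against 67.1 to 236 CPM (median 123), a fold of 1.04 ± 0.15 (adjusted p = 0.000121). Icam1, an adhesion molecule, ranged from 146 to 366 CPM against 48.3 to 162 CPM (1.14 ± 0.10, adjusted p = 9.59e-07). Il1a ranged from 134 to 445 CPM against 92.3 to 251 CPM (0.90 ± 0.15) and Tnf from 93.2 to 237 CPM against 46.3 to 162 CPM (0.52 ± 0.10), both inflammatory cytokines. Each of these 5 genes was higher in 10 of 10 tumors, with overlapping ranges. Choosing cells without Cxcl10 left Cd274 at 0.88, Icam1 at 0.39 and Il1a at 0.58, while Acod1 (0.14, adjusted p = 0.426) and Tnf (0.25, adjusted p = 0.2) were no longer called with TMM. On library totals both were still higher (0.38 and 0.49, adjusted p = 0.00604 and 0.0184). Il1b, Nfkbia and Clec4e were not called with TMM (-0.20, 0.18 and -0.04). On library totals Nfkbia (0.38, adjusted p = 0.000705) and Clec4e (0.16, adjusted p = 0.045) were higher and Il1b was not called (adjusted p = 0.997). Each was higher in the restricted set (0.25, 0.62 and 0.45). With cells chosen without Cxcl10, Il1b (-0.50, adjusted p = 0.00206) and Clec4e (-0.34, adjusted p = 0.0233) were lower with TMM, and on library totals Il1b alone was (-0.26, adjusted p = 0.0108).

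Of 14 cell death and survival genes, 8 were higher and 1 lower. The restricted set gave 9 of 12 higher and 0 lower, and the UMI-matched set 8 of 14 higher and 0 lower. With library totals all cells had 12 higher and 1 lower, and UMI-matched cells 7 and 0. Casp8, the apical death-receptor caspase, ranged from 47.8 to 69.9 CPM against 23.2 to 33.2 CPM without overlap (0.79 ± 0.07), and is named after its values were seen. Casp4, the caspase that senses cytoplasmic lipopolysaccharide, ranged from 194 to 335 CPM against 117 to 245 CPM (0.29 ± 0.10, adjusted p = 0.0302), and without Cxcl10 in the rule was called on library totals (0.33, adjusted p = 0.0115) but not with TMM (0.09, adjusted p = 0.591). Mcl1, a survival factor of neutrophils, was lower (-0.48 ± 0.09) and stood at 0.18 in the UMI-matched set.

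Granule and neutrophil marker genes were mostly lower with all cells, and their calls depended on the set. All 8 further neutrophil markers were lower. Restricted cells had 2 of 8 higher and 3 lower, and UMI-matched cells 2 of 8 higher and 0 lower. On library totals the list had 0 higher and 7 lower, and UMI-matched cells 2 and 1. Of 14 granule and early genes, 12 were lower and 1 higher, while the restricted set called 6 lower and the UMI-matched set 0. On library totals 11 were lower, with 9 in the restricted and 2 in the UMI-matched set. Retnlg, a resistin-like protein of neutrophils, ranged from 7788 to 15786 CPM against 15356 to 21528 CPM (-0.75 ± 0.10), and stood at -0.26 in the restricted and -0.09 in the UMI-matched set, where it was called lower on library totals only (-0.20, adjusted p = 0.0206). Mmp9, gelatinase B, had a fold of -0.76 ± 0.10 and of -0.05 in the UMI-matched set. Camp, the cathelicidin of immature neutrophils, had the lowest fold under the naming rule. It ranged from 0 to 81.7 CPM (median 7.15) against 8.39 to 159 CPM (median 37.5), a fold of -2.52 ± 0.32 (adjusted p = 3.44e-05), and stood at -1.63 in the UMI-matched set, where it was not called (adjusted p = 0.127). Of 6 NADPH oxidase genes 1 was higher and 4 lower. With the restriction 2 of 6 were higher and 2 lower, and in the UMI-matched set 2 of 6 were higher and 0 lower. All cells scaled by library totals gave 1 higher and 3 lower, and UMI-matched cells 2 and 0. Of 9 Fc and complement receptors 2 were higher and 4 lower. The restricted set gave 4 of 7 higher and 0 lower, and the UMI-matched set 3 of 8 higher and 0 lower. With library totals all cells had 4 higher and 3 lower, and UMI-matched cells 3 and 0. Of 14 stress genes 1 was higher and 6 lower. Restricted cells had 2 of 14 higher and 5 lower, and UMI-matched cells 3 of 14 higher and 0 lower. On library totals the list had 5 higher and 4 lower, and UMI-matched cells 1 and 3. Of 7 cycling genes 0 were called with TMM, and on library totals 2 higher and 0 lower.

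Genes lower in all 4 comparisons were few. Of the 12 lowest under the naming rule these were Cd300lb, Tsc22d3, Tbc1d10c and Nfe2. Cd300lb, a receptor of myeloid cells, ranged from 27.9 to 65.2 CPM (median 41.2) against 66.8 to 136 CPM (median 83.8) without overlap (as in 0.0669% of all genes tested), a fold of -1.25 ± 0.12 (adjusted p = 3.57e-06). Tsc22d3, which encodes the glucocorticoid-induced leucine zipper protein, ranged from 42.3 to 102 CPM (median 55.5) against 95.9 to 168 CPM (median 105), a fold of -1.12 ± 0.10 (adjusted p = 1.69e-06). It stood at -0.70 in the restricted and -0.37 in the UMI-matched set. Nfe2, a hematopoietic transcription factor, ranged from 20.7 to 43.8 CPM against 37.1 to 69.4 CPM (-0.99 ± 0.12). The other eight, Camp, Sik1, Hlx, Ccno, St3gal5, Osgin1, 9830107B12Rik and A530064D06Rik, were lower in the restricted set and not called in the UMI-matched set with TMM. On library totals Sik1 (-0.39), Osgin1 (-0.32), 9830107B12Rik (-0.49) and A530064D06Rik (-0.36) were called lower in the UMI-matched set too.

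Cells that passed on Cxcl10 alone and cells with at least 5 UMIs of Rsad2, Ifit1 and Ifit3 differed in what else they carried. The split uses genes of the rule, so it is described without a test, in the restricted set, where 1153 barcodes were Cxcl10-only and 803 had at least 5 of the other three. In Cxcl10-only cells 45 of the 53 listed interferon-stimulated genes had the lower median and 3 the higher. No share over all genes stands beside the counts of medians for this split, and whether they differ from it was not tested. Isg15 ranged from 358 to 1201 CPM (median 645) in Cxcl10-only cells and 689 to 3394 CPM (median 1812) in the others. Slfn4 ranged from 558 to 935 CPM (median 762) in Cxcl10-only cells and 1359.6 to 2049 CPM (median 1672) in the others, and Cmpk2 from 4.50 to 22.0 CPM (median 10.9) in Cxcl10-only cells and 96.5 to 276 CPM (median 142) in the others. Slfn4 and Cmpk2 did not overlap between these kinds of cell, as in 0.281% of the genes tested in the restricted set. In restricted other neutrophils the medians were 284 CPM for Isg15 and 591 CPM for Slfn4, below both kinds. For Cmpk2 and Ifit2 they were 8.83 and 1.30 CPM, against 10.9 and 0 CPM in Cxcl10-only cells. Cxcl10-only cells have no UMI of Rsad2, Ifit1 and Ifit3 by choice, while the other neutrophils may have up to 4. The choice itself bears on this comparison, so no conclusion is drawn from it.

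Of 20 activated neutrophil genes, 13 had the higher and 7 the lower median in Cxcl10-only cells. Of 16 guanylate-binding proteins and GTPases, 3 had the higher and 9 the lower one. Icam1 ranged from 229.6 to 559 CPM (median 379) in Cxcl10-only cells and 44.5 to 318 CPM (median 171) in the others, with Cxcl10-only cells higher in 10 of 10 tumors. Il1a had a median of 483 against 374 CPM and was higher in Cxcl10-only cells in 8 of 10 tumors, Gbp5 246 against 144 CPM in 8, and Acod1 3239 against 2637 CPM in 8. Cd274 (401 against 469 CPM) and Gbp2 (599 against 705 CPM) lay nearer together, with Cxcl10-only cells higher in 4 and 2 of 10 tumors. Without the restriction the epithelial list had a median of 1765 CPM in Cxcl10-only cells and 4064 CPM in cells with at least 5 of the other three.

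**Figure D4:**
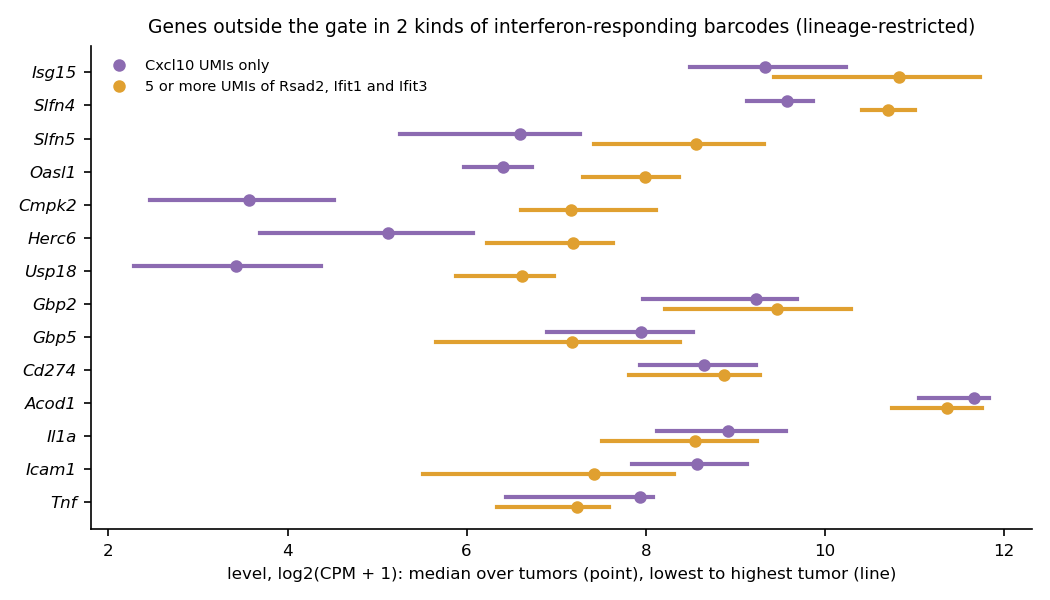
Points give the median and lines the lowest to highest of 10 tumors, for 14 genes (x axis, log2(CPM + 1)) in lineage-restricted interferon-responding barcodes with Cxcl10 UMIs only or with 5 or more UMIs of Rsad2, Ifit1 and Ifit3. Slfn4, Slfn5, Oasl1, Cmpk2, Herc6 and Usp18 lie apart, and Icam1 has the higher median in Cxcl10-only cells.

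Whether interferon-responding cells differed between mice was asked with 1 sum per tumor (edgeR quasi-likelihood F test over 3 mice). Of 9494 genes 0 were called (0.0%), 683 had an unadjusted p under 0.05, the lowest adjusted p was 0.211, and DESeq2 called 98. The 5 genes with the smallest p were Slc15a2, Chka, Smim22, Hilpda and Chil3. Hilpda, a hypoxia-induced lipid droplet gene, had means of 73.9, 128 and 180.1 CPM in mice A, B and C, and Chil3, a chitinase-like gene, 402, 279.9 and 106 CPM. In the restricted set 374 of 4720 genes were called (7.92%). These included 9 of 19 activated neutrophil genes, 4 of 13 stress genes, 3 of 43 interferon-stimulated genes (Ifitm1, Ly6e and Ifit1bl2) and 0 of 11 guanylate-binding proteins and GTPases, and whether these shares differ was not tested.

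Among the restricted calls, 5 genes named after their values were seen show how the mice differed. Il1b ranged from 7739 to 10650.2 CPM in mouse A, 10619.8 to 12067 in B and 12921 to 14901 in C (adjusted p = 0.00637). Tgm2, a transglutaminase, ranged from 188 to 327, 249.99 to 358 and 562 to 676 CPM in the same order (adjusted p = 0.000166). Tnf was lowest in mouse C, at 174 to 256, 219 to 236 and 83.7 to 134 CPM (adjusted p = 0.000552), as was Icam1 at 291 to 436, 328 to 395 and 167 to 209.7 CPM (adjusted p = 0.0015). In these 4 genes mouse C did not overlap with A or with B, as in 7.46% of all genes tested. The stress gene Jun had means of 384, 239.6 and 146 CPM in mice A, B and C. Means of the restricted other neutrophils ran in the same order for these 5 genes, and for 17 of the 21 genes called in the 6 lists of these cells' programs, the exceptions being Vegfa, Cxcl2, Cxcl3 and Irf8. The order was shared by 296 of all 374 called genes (79.1%) and by 41.1% of all genes tested. Both erythrocyte markers were called between mice too, with mouse C highest. Hbb-bs ranged from 3.76 to 12.9, 5.17 to 23.3 and 34.2 to 98.1 CPM in mice A, B and C (adjusted p = 0.000166), and Hba-a1 from 2.02 to 4.89, 0.470 to 5.30 and 7.61 to 31.8 CPM (adjusted p = 0.00867). The part of this RNA in the differences between mice was not tested.

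Barcodes of other gated classes passed the interferon sum too. The 4-gene sum was applied, with every barcode thinned to 1500 UMIs, to 27177 gated neutrophils and to gated C1q macrophages (6587 barcodes), monocytes (4210), T cells (5875) and epithelial cells (15583) of the same tumors. These classes were gated on the C1q genes, on Ly6c2 and Ccr2, on the Cd3 genes and on Epcam. The share was 1.40% to 15.9% in neutrophils (median 5.16%). Monocytes were higher, at 3.14% to 20.9% (median 10.3%), in 10 of 10 tumors (neutrophils minus monocytes -4.56 ± 3.18 points, SD, n = 10, exact paired permutation test). With at least 10 UMIs in place of 5 the medians were 2.58% and 4.47%, a difference of -1.66 ± 1.49 points, and neutrophils were the higher class in 2 of 10 tumors (adjusted p = 0.00781, exact permutation test). Neutrophils were above C1q macrophages (median 2.83%) by 3.53 points in 9 of 10 tumors. They were above T cells (median 1.51%) by 4.79 points in 9 of 10 and above epithelial cells (median 0.610%) by 5.97 points in 10 of 10. Each of the 4 comparisons had an adjusted p of 0.00391 in the two-sided exact permutation test over 1024 sign assignments. Without thinning, neutrophils (median 2848 UMIs) and C1q macrophages (median 8633 UMIs) had medians of 9.16% and 11.3%. Neutrophils were higher in 3 of 10 tumors, with a mean difference of 0.509 points (adjusted p = 0.795, exact permutation test). Unthinned T cells had a median of 4.41%, with neutrophils above by 7.09 points in 9 of 10 tumors (adjusted p = 0.0117, exact permutation test). Unthinned epithelial cells had 6.90%, with neutrophils above by 4.03 points in 8 of 10 (adjusted p = 0.0313, exact permutation test). The class with the lowest median was thus T cells without thinning and epithelial cells with it.

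The genes behind these shares differed by class. Rsad2 had a median of 77.8 CPM in gated neutrophils, 21.9 in C1q macrophages, 18.8 in monocytes, 4.88 in T cells and 10.4 in epithelial cells. Cxcl10 had a median of 875 CPM in monocytes, 401 in neutrophils, 219 in C1q macrophages, 161 in T cells and 62.3 in epithelial cells. Neutrophils thus led in Rsad2 and monocytes in Cxcl10. Retnlg, a neutrophil gene that no gate used, had a median of 17419 CPM in neutrophils, 15.3 in T cells and 6.81 in epithelial cells. How much of the 4 interferon genes free RNA adds to a barcode was not measured, so the T cell and epithelial values are levels in barcodes and are not read as expression by those cells. Interferon-responding neutrophils held 16.9% to 41.6% (median 24.4%) of a tumor's Cxcl10 UMIs and 20.0% to 44.7% (median 28.8%) of its Rsad2 UMIs. These cells were chosen by UMIs of the 4 genes, so the rule itself raises both shares. They made up 0.701% to 7.50% (median 2.95%) of a tumor's kept barcodes.

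Tumors with a larger interferon-responding share of neutrophils had higher levels of the interferon-stimulated list in gated monocytes. The list ranged from 8646 to 12304 CPM (median 10660.5), and Pearson's r with the share was 0.886 over 10 tumors (p = 0.0003, adjusted p = 0.0015 over 5 relations, permutation test). Spearman's rho was 0.673 (p = 0.0389, adjusted p = 0.0985, permutation test). Without tumors 1 and 9, the farthest from the median share, r was 0.769 (p = 0.024, adjusted p = 0.0682, permutation test), and centred within mouse it was 0.875. The relation in monocytes held its direction in each of these. For C1q macrophages r was 0.696 (p = 0.026, adjusted p = 0.0651) and rho 0.673 (adjusted p = 0.0985, permutation tests), with r at 0.771 without tumors 1 and 9 and 0.761 centred within mouse. Without tumor 9 alone it was 0.511, and leaving out tumor 1, 7 or 10 brought it past the threshold. For T cells r was 0.571 (adjusted p = 0.123) and rho 0.539 (adjusted p = 0.181, permutation tests). For epithelial cells r was 0.529 (adjusted p = 0.123) and rho 0.321 (adjusted p = 0.369, permutation tests). Without tumors 1 and 9, r was 0.147 in T cells and -0.0442 in epithelial cells. In epithelial cells r was 0.186 without tumor 1 alone and 0.598 without tumor 9 alone. In T cells it was 0.408 without tumor 1 and 0.516 without tumor 9. Centred within mouse, r was 0.87 in T cells and 0.925 in epithelial cells. Centring took out the mouse means, which the permutation did not allow for, so no p is given for centred values. Without tumor 10, r passed the threshold in T cells and in epithelial cells (r 0.711 and 0.72, each adjusted p = 0.0394, permutation tests). For Ifng over all kept barcodes r was 0.535 (adjusted p = 0.123) and rho 0.503 (adjusted p = 0.181, permutation tests), with r at 0.66 without those tumors and 0.512 centred within mouse. It was 0.288 without tumor 1 alone, and 0.779 without tumor 9 alone, where it passed the threshold (adjusted p = 0.0251, permutation test). The 10 tumors came from 3 mice by the paper's count, so they are not independent animals, and all classes of a tumor share a library.

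**Figure D5:**
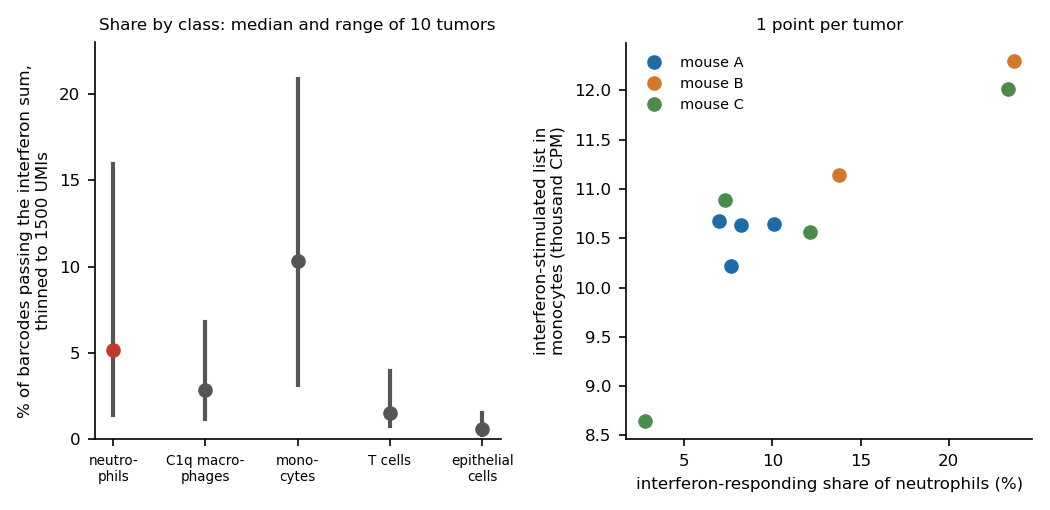
Left, the percent of barcodes with at least 5 UMIs of the 4 interferon genes after thinning to 1500 UMIs, as the median and range of 10 tumors, in 5 gated classes; monocytes have the highest median (10.3%) and epithelial cells the lowest (0.610%). Right, 1 point per tumor, with the interferon-responding share of neutrophils on the x axis and the summed interferon-stimulated list in monocytes on the y axis, in CPM divided by 1000; the highest tumors on both axes are 1 and 9.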

How the data were processed

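The authors deposited, per library, a matrix of raw counts (whole UMIs per gene and barcode, not normalized), which the submitters' processing notes tie to Cell Ranger 6.0.0 and mm10. The 10 tumor libraries held 57221300 to 93157039 UMIs. The members and gene lists were chosen with earlier results of these data known.

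UMIs were summed per tumor and state and scaled to CPM of the sum. Sums were compared with edgeR 4.0.16 (TMM, filterByExpr, quasi-likelihood test, Benjamini-Hochberg threshold 0.05) in R 4.3.3, with the tumor as a block, since both sums come from the same library (8 of 10 sums correlated best with their own tumor, each r at least 0.161). DESeq2 1.42.0 was an alternative. Named genes were the 12 highest and 12 lowest folds above a fixed CPM, the 4 most abundant genes per list, and the 5 with the smallest p between mice; others are stated as named later. Some genes are not reported here. Shares and relations were tested by permutation in scipy 1.17.1, and doublets scored with Scrublet in scanpy 1.11.5, removing 0.8% per 1000 barcodes. On simulated data, 82% of genes changed 1.5-fold and 100% of those changed 2-fold were recovered between states, with 21 false calls among 10478 genes. The changed genes were drawn from those above 10 CPM. The simulation held no doublets, no RNA of other cells and no difference in barcode depth between states, so its false calls do not cover these. The lineage-restricted set, the rule without Cxcl10 and the scaling by library totals in place of TMM were added after seeing the data. The paper counts 3 mice for the 10 tumors, so tumors are not separate animals. The p-values measure the spread between tumors and not between animals.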

Additional observations from a re-analysis of the deposited data

Results flagged for a closer look

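7 values in interferon-responding cells stood apart from the other nine tumors, by the gap to the nearest tumor over the whole range. In tumor 3, with 52 barcodes, these were Rsad2 (750.3 CPM), Ifit3 (225 CPM), Cmpk2 (116 CPM), Cxcl9 (736 CPM) and Ifit2 (286 CPM). Camp stood apart in tumor 4 (81.7 CPM) and Ifi203 in tumor 6 (129 CPM). Of 38 groups tested, chance gives about 1 in 20, or 1.9.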

How the results depend on the processing

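The count of 3797 genes called between states fell to 1896 with an interferon sum of at least 10 (42.0% of them higher, against 46.9% with all cells), to 906 without doublets (56.3%), to 1744 with no UMI of 7 other-lineage genes (60.4%), to 1340 in the restricted set (59.7%) and to 723 in the UMI-matched set (83.1%). Of the calls shared with all cells, 54 of 823 in the restricted set and 64 of 343 in the UMI-matched set were opposite. Without the replicate block of paired sums from one tumor, 2070 were called, and leaving out a tumor gave 3024 to 3977 with tumor 1 left out at 58.6% higher. On library totals in place of TMM 4779 were called, 80.0% of them higher. Between mice, 0 calls became 185 with no UMI of 7 other-lineage genes, 374 in the restricted set, 6 without Cxcl10, 98 with DESeq2, 331 without the filter and 0 to 2 leaving out a tumor. The exact permutation p of the share between mice ran from 0.0246 to 0.635 leaving out a tumor. For the relations over tumors, r leaving out a tumor ran from 0.511 to 0.85 in C1q macrophages, 0.835 to 0.931 in monocytes, 0.408 to 0.711 in T cells, 0.186 to 0.72 in epithelial cells and 0.288 to 0.779 for Ifng. Centred within mouse, r was 0.761 in C1q macrophages, 0.87 in T cells and 0.925 in epithelial cells, with no p given. Without tumors 1 and 9, r in monocytes (0.769) no longer passed the threshold after adjustment. With raw UMIs neutrophils and C1q macrophages differed by 0.509 points and missed the threshold.

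Of 1725 values of 75 named genes under these settings, 1513 kept direction and side of the threshold, 86 kept direction and lost the call, 39 kept direction and gained it and 87 changed sign. Of the sign changes, 16 were of genes called with all cells, 26 of genes called only under the other setting and 45 of genes called in neither. Among genes called with all cells, the sign changed in the UMI-matched set for Ccl6 (0.0223), Cd74 (-0.0974), Ifitm1 (0.24), Ifngr1 (0.0919), Il10rb (0.19), Jak1 (0.28), Mcl1 (0.18), Ptpn1 (0.29) and Tlr4 (0.0840), in the restricted set for Ifitm1 (0.0333), Jak1 (0.13) and Ptpn1 (0.17), with no UMI of 7 other-lineage genes for Jak1 (0.11) and Ptpn1 (0.13), without Cxcl10 for Socs3 (-0.15), and on library totals for Ifngr2 (0.0258). Among genes not called with all cells, it changed in the UMI-matched set for Clec4e (0.62), Cxcl2 (0.59), Cxcl3 (0.58), H2-D1 (0.39), Ifnar1 (0.22), Ifnar2 (0.36), Il1b (0.44), Nlrp3 (0.59) and Tlr2 (0.37), in the restricted set for Clec4e (0.45), Cxcl2 (0.45), Cxcl3 (0.47), H2-D1 (0.32), Ifnar1 (0.18), Ifnar2 (0.34), Il1b (0.25), Nlrp3 (0.43) and Tlr2 (0.26), with no UMI of 7 other-lineage genes for Clec4e (0.39), Cxcl2 (0.39), Cxcl3 (0.39), H2-D1 (0.32), Ifnar1 (0.16), Ifnar2 (0.30), Il1b (0.24), Nlrp3 (0.37) and Tlr2 (0.22), without doublets for Clec4e (0.24), Cxcl2 (0.23), Cxcl3 (0.23), H2-D1 (0.18), Ifnar2 (0.13), Il1b (0.0439), Nlrp3 (0.20) and Tlr2 (0.0370), with an interferon sum of at least 10 for Clec4e (0.10), Cxcl2 (0.10), Cxcl3 (0.11), H2-D1 (0.11), Ifnar2 (0.0294) and Nlrp3 (0.0659), without Cxcl10 for Irf1 (-0.19), Myd88 (-0.0881) and Nfkbia (-0.18), with 1 sum per mouse and state for Ccl4 (-0.0526) and Nfkbia (-0.0926), against other neutrophils with an interferon sum of 0 for Ccl4 (-0.0129), on library totals for Clec4e (0.16), Cxcl2 (0.14), Cxcl3 (0.11), H2-D1 (0.20), Ifnar1 (0.0272), Ifnar2 (0.12) and Nlrp3 (0.11), and for H2-D1 with DESeq2 (0.00994) and without the replicate block (0.0121). Leaving out a tumor changed it for Clec4e (-0.0855 to 0.0700), Cxcl2 (-0.12 to 0.0650), Cxcl3 (-0.12 to 0.0531), H2-D1 (-0.0408 to 0.0687), Ifnar2 (-0.13 to 0.0101) and Nlrp3 (-0.12 to 0.0291). In epithelial cells r changed sign without tumors 1 and 9 (-0.0442). The cause was not tested.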
